A study of Mus musculus with 2 samples.

Results

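The cells described here are 1319 of the 18029 barcodes of mouse bone marrow stem and progenitor cells that passed the submitters' quality call. Each carried at least 1 UMI (a distinct captured RNA molecule) of Hlf, of Mecom and of Mllt3, with at most 2 of the 6 dormancy markers Meg3, Cdkn1c, Pdzk1ip1, Mmrn1, Procr and Clec1a detected. Mpo had to be under 20 UMIs, Dntt under 3, Pf4 under 3 and Car1 under 5, which leaves out cells that carry much RNA of a granulocyte, lymphoid, megakaryocyte or erythroid lineage. These 13 genes chose the cells from measured values, so their levels are given below as a description with no test. A further 263 cells met every other criterion but had 3 or more dormancy markers, and they serve as the closest comparison.

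The cells came from young mice, either wild type (WT) or described by the labels as IκB-negative and named IkBKO in the deposited cell table; which IκB genes were altered is not stated in the sources used here. Marrow of the long bones of the hind limbs was depleted of mature cells and sorted for the LSK phenotype, which means no lineage markers, Sca-1 on the surface and high Kit. There were 2 droplet libraries, replicate 1 and replicate 2, and each held tagged cells of both genotypes, so both genotypes of a replicate shared 1 library. The rule found 230 WT and 166 IkBKO cells in replicate 1, and 412 WT and 511 IkBKO cells in replicate 2. How many mice made up a pool is not stated in the sources used here. The p-values below therefore reflect the variation among 4 pools, part of which may be technical. The fit leaves 1 residual degree of freedom, so the spread used for a gene is largely estimated with the help of the other genes.

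Haematopoietic stem cells sit at the top of the blood system, and most are quiescent in the undisturbed marrow. Hlf, Mecom and Mllt3 encode nuclear regulators that mark and maintain these cells and are switched off as cells become committed progenitors. NF-κB is a family of dimeric transcription factors that the IκB proteins hold inactive in the cytoplasm until an inflammatory signal has an IκB degraded, and several IκB genes are themselves NF-κB targets. Interferon-γ acts through JAK kinases and IRF1 on a separate gene programme of GTPases and antigen presentation genes, to which haematopoietic stem cells are known to respond.

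The label under which these cells were proposed calls them free of dormancy markers, and the data go against it, so they are called here by their rule. No dormancy marker was detected in 64 of the 230 WT and 55 of the 166 IkBKO members of replicate 1, or in 102 of the 412 WT and 129 of the 511 IkBKO members of replicate 2, and the others carried 1 or 2. Pdzk1ip1 was the one found most often, in 42.8% to 51.3% of the members of a pool, and Clec1a was found in at most 3.48%. Most members passed the Mecom and Mllt3 criteria with 1 UMI: in WT replicate 1, 140 of 230 members carried a single Mecom UMI and 168 a single Mllt3 UMI, whereas Hlf had a median of 5 UMIs. At the other edges, the highest Mpo count inside the rule was 18 or 19 UMIs and the lowest outside it was 20 to 22 UMIs in each of the 4 pools.

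Levels below are in CPM, the UMIs of a gene per 1000000 UMIs summed over the members of a pool. Hlf stood at 503 CPM in the WT members and 354 CPM in the IkBKO members of replicate 1, and in replicate 2 at 753 and 556 CPM. Mecom was at 143 and 167 CPM in replicate 1 and at 181 and 180.1 CPM in replicate 2. Mllt3 was at 121 and 168 CPM, then at 185 and 182 CPM. Hlf was thus lower in the IkBKO pool of both libraries while Mecom and Mllt3 had no common direction, values that the rule itself shaped. In the cells outside the rule, Hlf had 180.2 and 44.7 CPM in replicate 1, then 447 and 183 CPM in replicate 2.

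Of 28 stem cell identity genes outside the rule, 27 stood above their level in the remaining cells in every pool, a description since the members were chosen by related genes. The exception, Slamf1, which encodes CD150, was at 2.96, 8.40, 3.25 and 3.97 CPM in members against 2.98, 3.86, 2.68 and 7.15 CPM in other cells, in the order WT and IkBKO of replicate 1, then of replicate 2. The stem cell transcription factor gene Erg was 1.90 and 2.56 times as high in members as in other cells of the WT and IkBKO pools of replicate 1, and 1.51 and 1.64 times in replicate 2. Angpt1, which encodes the ligand of the Tie2 receptor, had ratios of 1.84, 2.78, 1.45 and 1.74 in the same order. For both genes the ratio was larger on the IkBKO side of each library, although the level itself was lower in the IkBKO members. In the same order, Erg was at 107, 93.6, 126 and 94.9 CPM in members and at 56.3, 36.6, 83.4 and 57.9 CPM in other cells. Angpt1 was at 158, 84.2, 272 and 204 CPM in other cells. Among the cells with 3 or more dormancy markers, Angpt1 was higher still, at 362, 384, 516 and 403 CPM against 291, 234, 396 and 355 CPM in the members.

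Members made up 6.18% of the passing WT cells (exact 95% binomial interval 5.43% to 7.0%) and 4.19% of the passing IkBKO cells (3.59% to 4.86%) of replicate 1. In replicate 2 they made up 8.30% (7.55% to 9.10%) and 9.49% (8.72% to 10.3%). The IkBKO share was therefore lower in one library and higher in the other, and the share was given no test. A rule that counts detected genes depends on depth: the median passing cell held 9963 UMIs in WT and 13709 in IkBKO in replicate 1, and 6983 and 9641 in replicate 2. After each cell was thinned to 5000 UMIs, the shares were 2.80% and 1.92% in replicate 1 and 4.99% and 5.10% in replicate 2, with 188 WT and 102 IkBKO cells of replicate 1 and 956 WT and 503 IkBKO cells of replicate 2 left out as shallower. At 8000 UMIs they were 3.18% and 1.90%, then 6.21% and 4.67%, with 1209, 759, 2997 and 2002 cells left out in the same order, so the direction in replicate 2 changed with the depth used. Free RNA can place a stem gene in a committed cell: among cells with 20 or more Mpo UMIs, whose median depth was 19455 to 22883 UMIs, all 3 genes were found in 2.36%, 0.883%, 5.0% and 4.71% of the cells, and in 0 of 131, 874, 15 and 106 such cells after thinning to 5000 UMIs. Those 0 counts allow shares of up to 2.78%, 0.421%, 21.8% and 3.42% by the exact 95% interval.

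**Figure D1:**
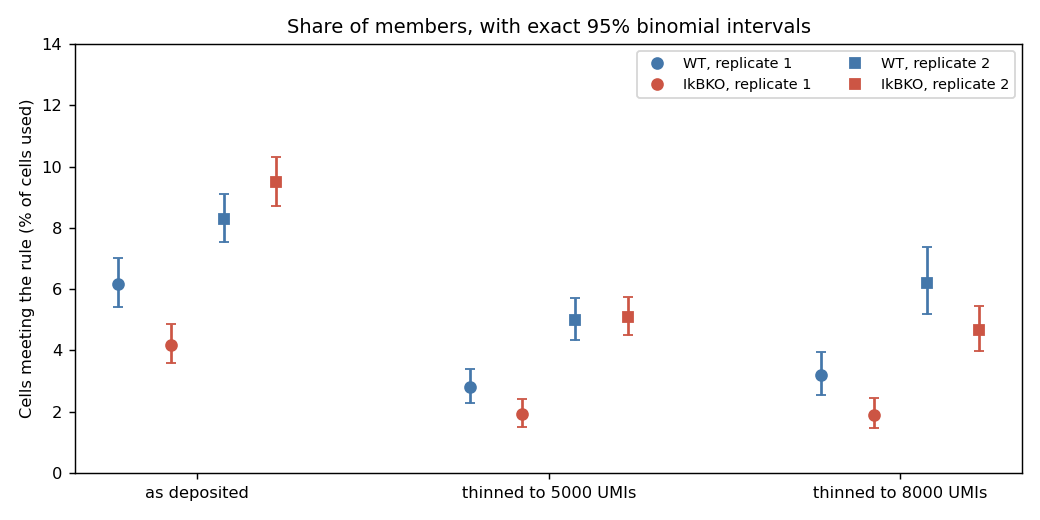
Percentage of cells that met the rule in each pool (vertical axis, starting at 0) with the counts as deposited and after thinning each cell to 5000 or 8000 UMIs. Circles are replicate 1 and squares replicate 2, blue is WT and red is IkBKO, and bars are exact 95% binomial intervals that cover counting error only; the IkBKO point of replicate 1 lies below its WT point in all 3 settings, whereas that of replicate 2 lies above at 9.49% against 8.30% as deposited and below at 4.67% against 6.21% with 8000 UMIs.

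Summed over the members, the pools held 2703712 UMIs in WT and 1667528 in IkBKO in replicate 1, and 3694269 and 4785306 in replicate 2. The median member held 10230 and 9089 UMIs in replicate 1 and 7184 and 7777 in replicate 2, so members differed less in depth between genotypes than passing cells did. The libraries shared 77 barcodes, and 39 barcodes passed in both. Of those 39, 3 belonged to members of replicate 1 and 2 to members of replicate 2. Xist had 2055 and 1923 CPM in replicate 1 members and 0 and 0.209 CPM in replicate 2 members, while the Y-linked gene Ddx3y had 0 in replicate 1 but 54.1 and 66.9 CPM in replicate 2, so the replicates also differ in sex-linked RNA.

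Within the members, the genotype effect was called (edgeR, Benjamini-Hochberg adjusted p of at most 0.05, replicate as a block) for 358 of 10977 genes tested, or 3.26%. Of these, 226 were higher (2.06%) and 132 lower (1.2%) in IkBKO. Hlf and Mmrn1, genes of the rule, are among the called genes and are not read as results. MHC class II and interferon-γ GTPase genes had medians above those of the other pathway, stem cell, lineage and cell cycle lists, and immediate-early genes the lowest; markers of mature neutrophils (median 2.73 over 4 genes tested) and of monocytes and dendritic cells (1.23 over 3) are taken up further below. In the remaining passing cells, which are a more mixed and more deeply summed population, the same test called 2462 of 14638 genes (16.8%), 8.95% higher and 7.87% lower, and in the cells with 3 or more dormancy markers 142 of 7641 (1.86%), 1.43% higher and 0.432% lower. Calls in the members rose to 574, 353 higher and 221 lower, when 60 members with much RNA of another cell type or very high MHC class II were left out. This alternative was chosen after seeing the data. It left out 9 WT and 6 IkBKO members of replicate 1, and 8 WT and 37 IkBKO members of replicate 2. The choice was thus uneven between pools, and class II RNA, part of it, itself differed between genotypes. DESeq2 called 42 genes, 30 higher and 12 lower, of which 40 were among the 358. With 1 pool left out in turn, which also removes the block, calls numbered 148 without WT replicate 1, 63 without IkBKO replicate 1, 138 without WT replicate 2 and 73 without IkBKO replicate 2, and without the block alone 68.

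The IκB and NF-κB family bears most directly on the genotype. Nfkbie, which encodes IκBε, stood at 10.7 CPM in the WT and 4.80 CPM in the IkBKO members of replicate 1, and in replicate 2 at 12.2 and 2.09 CPM, a log2 fold change of -1.97 ± 0.39 (SE; adjusted p = 0.00319). Nfkbib, which encodes IκBβ, was at 17.0 and 7.80 CPM and then at 17.3 and 6.48 CPM (-1.29 ± 0.27, adjusted p = 0.00461). Both IkBKO pools lay below both WT pools for either gene, and RNA of both was still counted in the IkBKO pools. Free RNA of the WT cells in the same library could be part of these low counts, which was not tested. A 3' tag outside an altered part of a gene would not show the alteration, and the altered genes are not named, so these values do not check the labels of the pools. Bcl3, an atypical family member that works in the nucleus, rose from 12.6 to 22.8 CPM and from 6.77 to 14.2 CPM (0.99 ± 0.25, adjusted p = 0.022). These were 1 higher and 2 lower among 14 family members tested. Nfkb2, the precursor of the p52 subunit, was at 9.99 and 22.2 CPM and at 10.3 and 14 CPM without passing (0.77 ± 0.25, adjusted p = 0.108), and its partner gene Relb was likewise not called (0.71 ± 0.28, adjusted p = 0.204). In the other cells both had similar fold changes, 0.65 ± 0.13 and 0.94 ± 0.14, and were called.

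Of 30 NF-κB response genes tested out of 42 listed, 5 rose and 2 fell, with a median log2 fold change of 0.15 beside 0.0004 over all genes tested. Irf1, a transcription factor induced by both NF-κB and interferon-γ, rose from 49.6 to 112 CPM and from 47.1 to 91.3 CPM (1.08 ± 0.12, adjusted p = 3.98e-06). The chemokine gene Ccl5 was at 1.48 and 27.6 CPM in replicate 1 and at 4.87 and 29.5 CPM in replicate 2 (3.06 ± 0.30, adjusted p = 3.81e-07), from 4 and 18 UMIs in the WT pools. Cd69, an early activation antigen, fell from 24.4 to 11.4 CPM and from 42.0 to 16.3 CPM (-1.27 ± 0.20, adjusted p = 0.000212). The list as a whole was thus split, since its fallen members also included the chemokine gene Ccl3, outside the naming rule and picked after its value was seen.

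Among genes with a name and at least 20 CPM in 1 genotype, the 2 largest called rises in the members were in Gdpd3 and AA465934, outside these families. Gdpd3 (chr7:126766334-126775649, GRCm38, plus strand), which encodes a lysophospholipase D, had 1 UMI in each WT pool and 119 and 245 UMIs in the IkBKO pools of replicates 1 and 2. That is 0.37 and 71.4 CPM in replicate 1 and 0.271 and 51.2 CPM in replicate 2. The ratio was 193 in replicate 1 (exact 95% counting interval 33.97 to 7684) and 189 in replicate 2 (33.6 to 7501), so the WT level was at the edge of detection and the size of the ratio is poorly fixed. AA465934 (chr11:83291699-83294632, plus strand), annotated as a processed transcript with no known function, was at 3.70 and 144 CPM in replicate 1 and at 1.89 and 90.9 CPM in replicate 2 (log2 fold change 5.42 ± 0.21, adjusted p = 1.57e-14). Under each of the 14 alternatives that gave a value, both genes kept their direction and stayed called, with log2 fold changes of 5.76 to 7.71 for Gdpd3 and 4.46 to 6.72 for AA465934.

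Other genes among the 12 highest by the same filter had smaller fold changes. Serpina3f (chr12:104214544-104221129), a serine protease inhibitor gene of a multigene cluster, was at 3.70 and 52.2 CPM and at 2.98 and 19.6 CPM (3.33 ± 0.28). Dhx40, a helicase gene, went from 9.25 to 25.8 CPM and from 4.6 to 27.6 CPM (2.08 ± 0.26), and Pdcd1lg2, which encodes the checkpoint ligand PD-L2, from 10.7 to 38.4 CPM and from 11.9 to 36.2 CPM (1.72 ± 0.20). Selp, which encodes P-selectin and is known to rise in aged stem cells, went from 20.7 to 43.8 CPM and from 4.33 to 19.4 CPM (1.5 ± 0.23). Ffar2, a short-chain fatty acid receptor gene, went from 38.5 to 78.0 CPM and from 18.4 to 64.8 CPM (1.45 ± 0.17). In these 5 genes each IkBKO pool lay above the WT pool of its own library, while Selp in IkBKO replicate 2 lay below WT replicate 1.

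**Figure D2:**
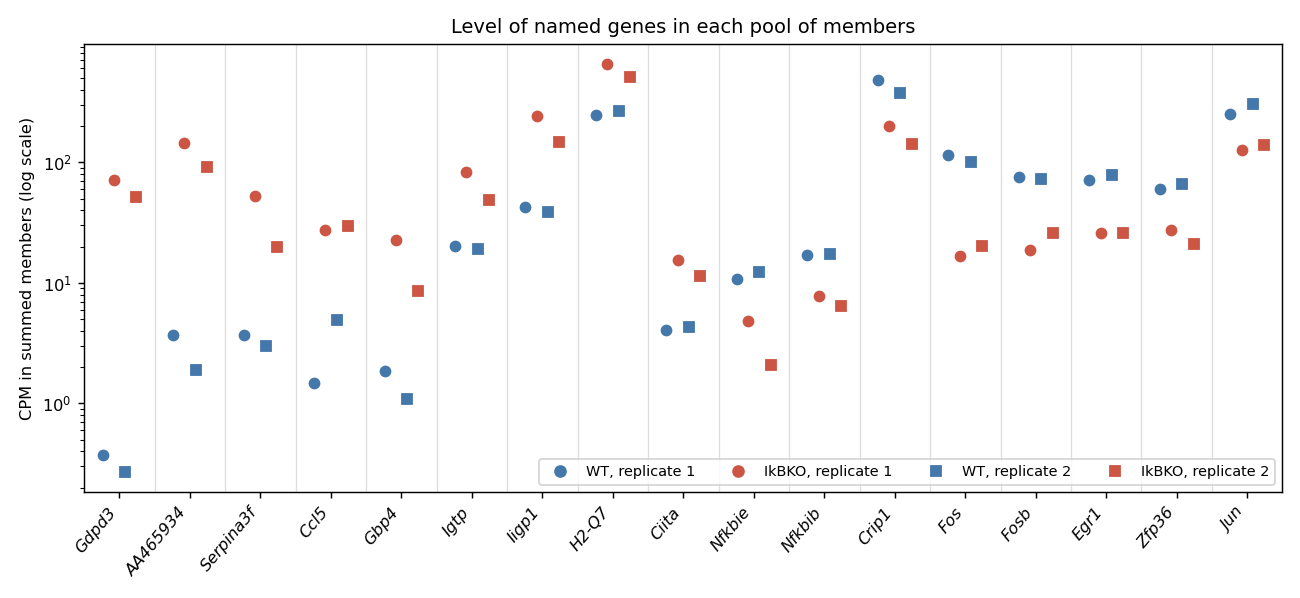
CPM of 17 named genes in the summed members of each pool (vertical axis, log scale), with circles for replicate 1, squares for replicate 2, blue for WT and red for IkBKO; each point is 1 pool and no error bar is drawn. Gdpd3 lies at 0.37 and 0.271 CPM in WT against 71.4 and 51.2 CPM in IkBKO, and Fos at 115 and 100.2 CPM in WT against 16.8 and 20.1 CPM in IkBKO.

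Interferon-γ-induced GTPase genes, whose products attack the vacuoles of intracellular microbes, rose as a group: 12 of 16 were higher, 0 lower, with a median log2 fold change of 1.11. The other cells had 6 of 16 higher and 0 lower, with a median of 0.86. The test of a difference between members and other cells called 0 of these genes. Iigp1 stood at 42.5 CPM in the WT and 244 CPM in the IkBKO members of replicate 1, and in replicate 2 at 38.4 and 147 CPM (2.24 ± 0.13, adjusted p = 7.62e-11). Igtp was at 20.3 and 83.4 CPM, then at 18.9 and 48.5 CPM (1.69 ± 0.18, adjusted p = 8.41e-07). Both IkBKO pools of either gene were above both WT pools, and in both genes the IkBKO pool of replicate 1 was the higher of the IkBKO pools. Gbp4 was at 1.85 and 22.8 CPM and at 1.08 and 8.57 CPM (3.35 ± 0.42, adjusted p = 1.25e-05), and Gbp3 at 18.5 and 47.4 CPM and at 15.7 and 35.9 CPM (1.29 ± 0.18, adjusted p = 6.78e-05). The Gbp and Tgtp genes belong to families of copies that are alike to differing degrees. How reads shared between copies were counted is not stated, so single genes with a close copy are uncertain.

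Feedback genes of cytokine signalling were called in part. Socs2, a feedback inhibitor of cytokine receptors, went from 9.62 to 46.2 CPM and from 18.7 to 41.2 CPM (1.56 ± 0.22, adjusted p = 0.000125). Of 14 JAK-STAT feedback genes 3 rose, 0 fell and 11 were not called; beside Socs2, those that rose were the kinase genes Pim1 (0.66 ± 0.11, adjusted p = 0.00543) and Pim2 (0.75 ± 0.20, adjusted p = 0.0314). Of 28 type I interferon genes tested, 2 rose, among them the nucleic acid sensor gene Zbp1 (1.14 ± 0.26, adjusted p = 0.0134), and 0 fell, with a median of 0.07. Over all genes tested, 2.06% were higher and 1.2% lower. In the other cells 1 of 29 type I genes rose and 15 fell, with a median of -0.44, beside 8.95% higher and 7.87% lower over all genes tested there. The test of a difference between members and other cells called 3 genes of this list. Per member thinned to 5000 UMIs, its median was 7 UMIs in WT and 11 in IkBKO in replicate 1, but 8 and 9 in replicate 2. In single members thinned to 5000 UMIs, the GTPase genes had a median of 1 UMI in both WT pools and 3 and 2 UMIs in the IkBKO pools, and 28.7% and 22.2% of WT against 5.59% and 9.76% of IkBKO members had none of their RNA.

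The promoters of the risen GTPase genes are shown because the genes moved together and the interferon response has known DNA elements. RefSeq promoter windows (GRCm38.p6, 250 bases before to 50 after the start) were found for 8 of the 12 genes, in 9 distinct windows. The GAS element, TTCNNNGAA, a site of the interferon-γ response, was in 5 of the 9 (55.6%) against 8.3% of 32851 RefSeq promoters of the same length. The ISRE core, GAAANNGAAA, a site of the IRF family, was in 7 of the 9 (77.8%) against 3.44%. Both strands were searched, both motifs were added after the rise was seen, the windows share sequence between gene copies, and a match is not evidence of binding. The 120 bases before the start follow for 4 of these genes, 5′ to 3′ on the gene's strand, with GAS and ISRE matches on either strand in capitals. Where the 2 motifs lie side by side in Igtp and Tgtp1, they do not overlap.
Igtp (chr11:58199436-58199555, plus strand): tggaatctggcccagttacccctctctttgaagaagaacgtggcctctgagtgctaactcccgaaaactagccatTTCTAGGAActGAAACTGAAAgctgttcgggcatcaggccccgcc
Tgtp1 (chr11:48992247-48992366, minus strand): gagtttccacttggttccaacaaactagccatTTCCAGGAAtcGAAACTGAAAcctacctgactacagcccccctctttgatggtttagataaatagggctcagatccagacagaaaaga
Gbp7 (chr3:142530216-142530335, plus strand): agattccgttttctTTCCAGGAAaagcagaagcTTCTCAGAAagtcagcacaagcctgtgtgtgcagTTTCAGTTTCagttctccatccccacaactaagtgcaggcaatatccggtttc
Gbp2 (chr3:142620543-142620662, plus strand): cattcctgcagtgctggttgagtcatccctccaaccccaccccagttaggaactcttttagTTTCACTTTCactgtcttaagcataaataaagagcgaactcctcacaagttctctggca

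Antigen presentation genes rose beside them. Of 17 MHC class I pathway genes, 12 were higher and 0 lower, with a median log2 fold change of 0.43. H2-Q7, a non-classical class I gene of a family of near-identical copies, was at 248 and 648 CPM and at 267 and 512 CPM (1.18 ± 0.09, adjusted p = 4.06e-06). B2m, the light chain shared by class I molecules, was at 1336 and 1926 CPM and at 1385 and 1784 CPM (0.47 ± 0.05, adjusted p = 7.77e-07), and the immunoproteasome gene Psmb9 at 190.5 and 293 CPM and at 222 and 295 CPM (0.53 ± 0.08, adjusted p = 0.000191). The class I rise was small in fold but separated both IkBKO pools from both WT pools for each of these 3 genes. It was also present in the other cells, with 11 of 17 genes higher, 0 lower and a median of 0.47.

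Of 11 MHC class II pathway genes, 5 were higher and 0 lower, with a median of 1.52. Ciita, the master regulator of the pathway, went from 4.07 to 15.6 CPM and from 4.33 to 11.3 CPM (1.63 ± 0.33, adjusted p = 0.00379). Ifi30, a lysosomal thiol reductase gene, went from 8.88 to 18.6 CPM and from 9.74 to 25.5 CPM (1.30 ± 0.23, adjusted p = 0.000875), and the peptide loading gene H2-DMb1 from 30.0 to 56.4 CPM and from 32.8 to 46.4 CPM (0.70 ± 0.16, adjusted p = 0.012). The structural genes had larger and less even differences: the invariant chain gene Cd74 was at 18.5 and 483 CPM in replicate 1 and at 109 and 344 CPM in replicate 2 (2.74 ± 1.27), which did not pass (adjusted p = 0.661). H2-Aa (1.98 ± 0.94) and H2-Eb1 (2.66 ± 1.02) did not pass either. These 3 genes and H2-Ob were chosen after their values were seen. The WT pool of replicate 2 held a member with 150 class II UMIs of its 5000, while the median there was 1 UMI. The highest member held 12 UMIs in WT replicate 1, and 86 and 148 in the IkBKO pools of replicates 1 and 2. Before thinning, 50 or more class II UMIs were found in 0 WT and 3 IkBKO members of replicate 1. In replicate 2 they were found in 1 WT and 8 IkBKO members. Without the 5% of members with the most UMIs in each library, 9 of 11 class II genes were called higher, Cd74 among them at 3.28, and 1 was called lower, H2-Ob at -0.72, which encodes an inhibitor of peptide loading. In single members the class II genes had a median of 1 UMI in both WT pools and of 6 and 4 UMIs in the IkBKO pools. The lower quartile of the IkBKO pools, 3 and 2 UMIs, was above the WT median. The other cells had 10 of 11 class II genes higher and 1 lower, with a median of 2.09. The test of a difference between members and other cells called 0 genes of this list.

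**Figure D3:**
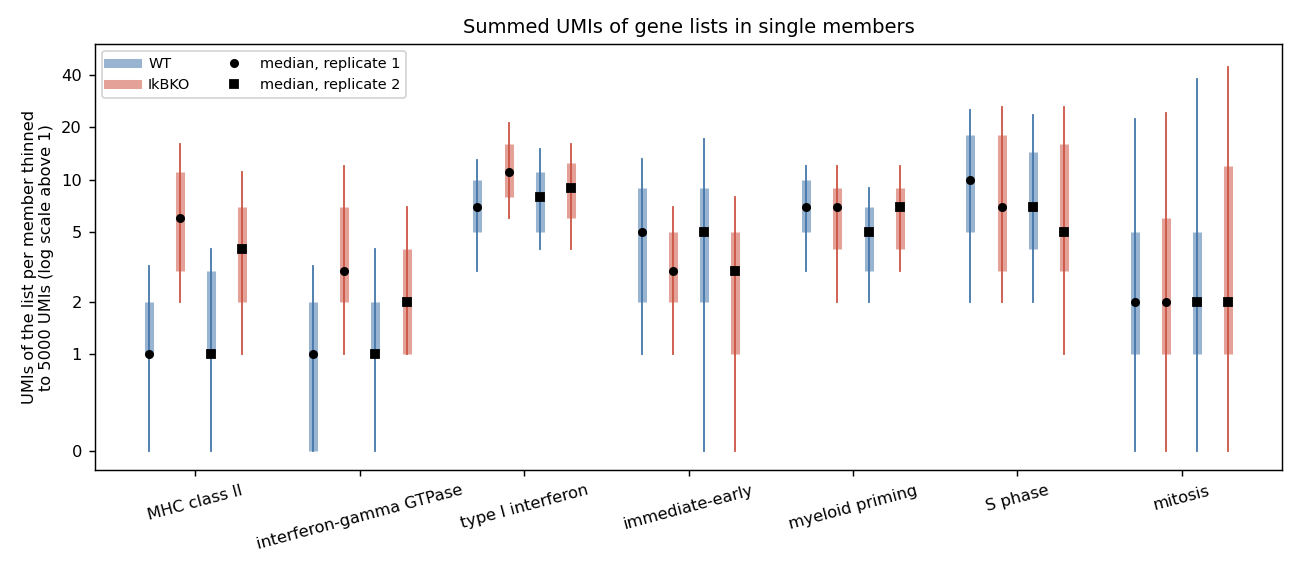
Summed UMIs of 7 gene lists per member after thinning to 5000 UMIs (vertical axis, linear from 0 to 1 and log above 1), for the 4 pools in the order WT and IkBKO of replicate 1, then of replicate 2. Thick bars span the quartiles, thin lines the 10th to 90th percentiles, and black points are medians (circles replicate 1, squares replicate 2); class II medians are 1 UMI in both WT pools against 6 and 4 in the IkBKO pools, and immediate-early medians are 5 against 3.

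Immediate-early genes encode transcription factors and RNA-binding proteins that are switched on within minutes of a stimulus and also during tissue dissociation. Of 17 tested out of 21 listed, 13 fell and 0 rose in IkBKO members, with a median log2 fold change of -0.97. In the other cells 16 of 21 fell and 1 rose, with a median of -1.21. The test of a difference between members and other cells called 0 genes of this list. Fos stood at 115 CPM in the WT and 16.8 CPM in the IkBKO members of replicate 1, and in replicate 2 at 100.2 and 20.1 CPM (-2.44 ± 0.15, adjusted p = 6.26e-11). Fosb was at 75.8 and 18.6 CPM and at 72.5 and 25.9 CPM (-1.64 ± 0.16, adjusted p = 3.81e-07), and Egr1 at 71.0 and 25.8 CPM and at 78.2 and 26.1 CPM (-1.51 ± 0.15, adjusted p = 4.12e-07). Each of these had both IkBKO pools below both WT pools. Jun, the partner of Fos in AP-1, was at 252 and 125 CPM and at 307 and 139 CPM (-1.06 ± 0.09, adjusted p = 1.62e-08), and Zfp36, whose product destabilises cytokine mRNAs, at 59.5 and 27.6 CPM and at 65.8 and 21.1 CPM (-1.41 ± 0.17, adjusted p = 5.14e-06). Junb was at 76.9 and 67.2 CPM and at 96.4 and 43.7 CPM, which did not pass (-0.72 ± 0.21, adjusted p = 0.17). In single members the list had a median of 5 UMIs in both WT pools and 3 UMIs in both IkBKO pools, and its 90th percentile was 13.2 and 17 UMIs against 7 and 8.

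RefSeq promoter windows were found for 11 of these 13 genes. The κB consensus was in 3 of the 11 (27.3%), Fos, Fosb and Nr4a1, against 4.5% of all promoters, and the CArG box, the site of serum response factor, was in 1 (Zfp36) against 1.63%. The AP-1 site TGANTCA was in 0 of the 11 against 7.81% of all. A missing match says only that these letters are not in the window. The sequences below show the κB match of Fos and Fosb in capitals, from 250 to 131 bases before the start, and the CArG box of Zfp36 in capitals, in the 120 bases before its start.
Fos (chr12:85473640-85473759, plus strand): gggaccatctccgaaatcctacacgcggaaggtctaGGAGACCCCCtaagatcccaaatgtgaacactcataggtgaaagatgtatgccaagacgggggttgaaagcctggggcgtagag
Fosb (chr7:19310176-19310295, minus strand): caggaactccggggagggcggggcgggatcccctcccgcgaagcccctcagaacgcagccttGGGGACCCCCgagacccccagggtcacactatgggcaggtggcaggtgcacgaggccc
Zfp36 (chr7:28379229-28379348, minus strand): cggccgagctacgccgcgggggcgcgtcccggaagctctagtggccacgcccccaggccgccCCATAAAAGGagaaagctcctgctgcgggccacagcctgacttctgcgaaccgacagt

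Further genes among the 12 lowest by that filter had varied roles. Crip1 (chr12:113146316-113153879), a small LIM protein gene, was at 485 and 201 CPM and at 377 and 141 CPM (-1.32 ± 0.08, adjusted p = 4.23e-11). Paqr5, a membrane progestin receptor gene, was at 33.7 and 4.20 CPM and at 25.7 and 10.2 CPM (-1.73 ± 0.27, adjusted p = 0.000457). Msmo1, an enzyme of cholesterol synthesis, was at 38.5 and 15.6 CPM and at 34.6 and 12.5 CPM (-1.38 ± 0.19, adjusted p = 6.78e-05). Apobr, a lipoprotein receptor gene, and Pot1b, a telomere protector gene, fell by 1.14 ± 0.22 and 1.12 ± 0.22 on the log2 scale. For each of these 5 genes every IkBKO pool was below both WT pools.

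Among 27 stem cell identity genes outside the rule, 1 rose and 2 fell, with a median of -0.10. Over all genes tested, 2.06% were higher and 1.2% lower. Ifitm1, an interferon-induced membrane protein gene, rose from 1173 to 1715 CPM and from 1158 to 1466 CPM (0.47 ± 0.05, adjusted p = 3.25e-06). Gcnt2, a glycosyltransferase gene, fell from 219.7 to 139 CPM and from 279.9 to 167 CPM (-0.68 ± 0.09, adjusted p = 1.29e-05), and the homeobox gene Hoxa9 fell from 88.8 to 71.4 CPM and from 125 to 83.2 CPM (-0.45 ± 0.11, adjusted p = 0.0239). Fgd5, a stem cell marker, was at 12.9 and 6.0 CPM and at 17.6 and 10.4 CPM without passing (-0.82 ± 0.25, adjusted p = 0.0854). Ly6a, which encodes Sca-1, the antigen of the sort, was at 80.3 and 283 CPM and at 116 and 206 CPM; it did not pass (1.30 ± 0.41, adjusted p = 0.514), although it did without the 5% of members with the most UMIs (1.15), and it was chosen after its values were seen. In the other cells, 1 of 28 identity genes was higher and 11 lower, with a median of -0.49, and 0 of the list's genes passed the test of a difference between members and other cells.

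Genes of the next stage, the early multipotent progenitors, went both ways, with 2 of 13 higher and 3 lower. Flt3, the receptor that marks lymphoid-primed progenitors, fell from 114 to 69.0 CPM and from 113 to 58.5 CPM (-0.83 ± 0.12, adjusted p = 6.27e-05), and Cd34 fell from 322 to 235 CPM and from 368 to 263 CPM (-0.45 ± 0.08, adjusted p = 0.000546). Cd48 rose from 84.0 to 113 CPM and from 66.9 to 95.5 CPM (0.50 ± 0.11, adjusted p = 0.0095), and Plac8 rose as well (0.42 ± 0.06, adjusted p = 0.000111). The third gene that fell, Otos, lies outside the naming rule and is named for its call. Of 14 stem cell ageing genes tested out of 24 listed, 4 rose and 0 fell: Selp, given above, Ehd3 from 1.85 to 15 CPM and from 2.98 to 16.1 CPM (2.64 ± 0.35, adjusted p = 2.55e-05), the metallothionein gene Mt1 (1.17 ± 0.26, adjusted p = 0.00861) and the retinaldehyde dehydrogenase gene Aldh1a1 (1.59 ± 0.43, adjusted p = 0.0417).

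Of 18 quiescence and cell cycle inhibitor genes 3 rose and 0 fell, beside 2.06% higher over all genes tested: the CDK inhibitor genes Cdkn1a (1.20 ± 0.29, adjusted p = 0.0196) and Cdkn2d (0.57 ± 0.16, adjusted p = 0.0463), and Ccng2, an atypical cyclin of resting cells (0.66 ± 0.17, adjusted p = 0.0264). Ccnd2, a D-type cyclin that drives entry into the cycle, fell from 292 to 227 CPM and from 309.7 to 190.2 CPM (-0.52 ± 0.09, adjusted p = 0.000483), the only 1 of 11 G1 genes called. Of 30 mitosis genes 4 rose, Cenpa, Birc5, Ccnb2 and Top2a, by 0.29 to 0.60 on the log2 scale, and of 30 S phase genes Tyms rose (0.60 ± 0.12, adjusted p = 0.00261); 0 of either list fell. Mki67 or Top2a was detected in 49.6% and 52.4% of WT and IkBKO members of replicate 1 and in 38.6% and 47.0% in replicate 2, and after thinning to 5000 UMIs in 43.1% and 46.0%, then 36.3% and 43.2%. The median member had 2 mitosis UMIs in each of the 4 pools, and 10 and 7, then 7 and 5 S phase UMIs. In the other cells, 23 of 30 mitosis genes and 14 of 30 S phase genes were called higher, where 8.95% of all genes tested were. The median log2 fold change of the mitosis genes was 0.27 in members and 0.39 in other cells. For the S phase genes it was 0.05 and 0.26. The test of a difference between members and other cells called 0 genes of either list. Over all genes tested in members, 2.06% were higher and 1.2% lower. The single calls of the G1 and S phase lists in members are therefore not read as results about those lists.

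The limits on Mpo, Dntt, Pf4 and Car1 in the rule keep cells with much lineage RNA out of the members, so the lineage lists are counted here as a description and not set against the other cells. Of 18 myeloid priming genes tested out of 24, 1 rose and 0 fell, with a median of 0.08. The gene that rose in members, Csf2rb, encodes the common β chain of the interleukin-3 and GM-CSF receptors and went from 30.3 to 59.97 CPM and from 13 to 28.2 CPM (1.07 ± 0.18, adjusted p = 0.000421); its copy Csf2rb2 rose too (1.61 ± 0.35, adjusted p = 0.00809), and the 2 share much sequence. Among 12 lymphoid genes 1 rose and 2 fell: Satb1, a chromatin organiser of early lymphoid priming, fell from 81.0 to 31.8 CPM and from 69.3 to 39.5 CPM (-0.98 ± 0.15, adjusted p = 0.000141), Ighm fell, and the common γ chain gene Il2rg rose (0.51 ± 0.12, adjusted p = 0.017). Of 24 cytokine and growth factor receptor genes 4 rose and 2 fell, the latter Flt3 and Kit, the receptor of the sort, from 307 to 208 CPM and from 339 to 285 CPM (-0.36 ± 0.08, adjusted p = 0.0109). Megakaryocyte and erythroid lists had 1 call higher each, F2r and Muc13, and 0 lower. Over all genes tested, 2.06% were called higher and 1.2% lower. Single calls in lists this short are therefore given gene by gene and are not read as results about the lists.

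Survival, metabolism, ribosomal protein and adhesion lists were also counted. Of 10 BCL2 family genes, Bcl2 itself fell from 76.9 to 32.4 CPM and from 61.2 to 42.2 CPM (-0.78 ± 0.16, adjusted p = 0.00379), and of 16 glycolysis genes Hk2, a hexokinase gene, fell from 36.2 to 24.6 CPM and from 30.0 to 11.9 CPM (-0.97 ± 0.21, adjusted p = 0.00674). Of 13 mitochondrially encoded genes 6 fell and 0 rose, with a median of -0.15; mt-Co1 fell by 0.20 ± 0.03 on the log2 scale. Of 77 nuclear genes of the respiratory chain 4 rose and 0 fell, and of 82 cytosolic ribosomal protein genes 9 rose and 1 fell, Rpl13a, by 0.41 ± 0.04. Homing and adhesion genes had 0 of 15 called by edgeR. Beside the 2.06% higher and 1.2% lower over all genes tested, the single calls of the BCL2 and glycolysis lists are not read as results about those lists.

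**Figure D4:**
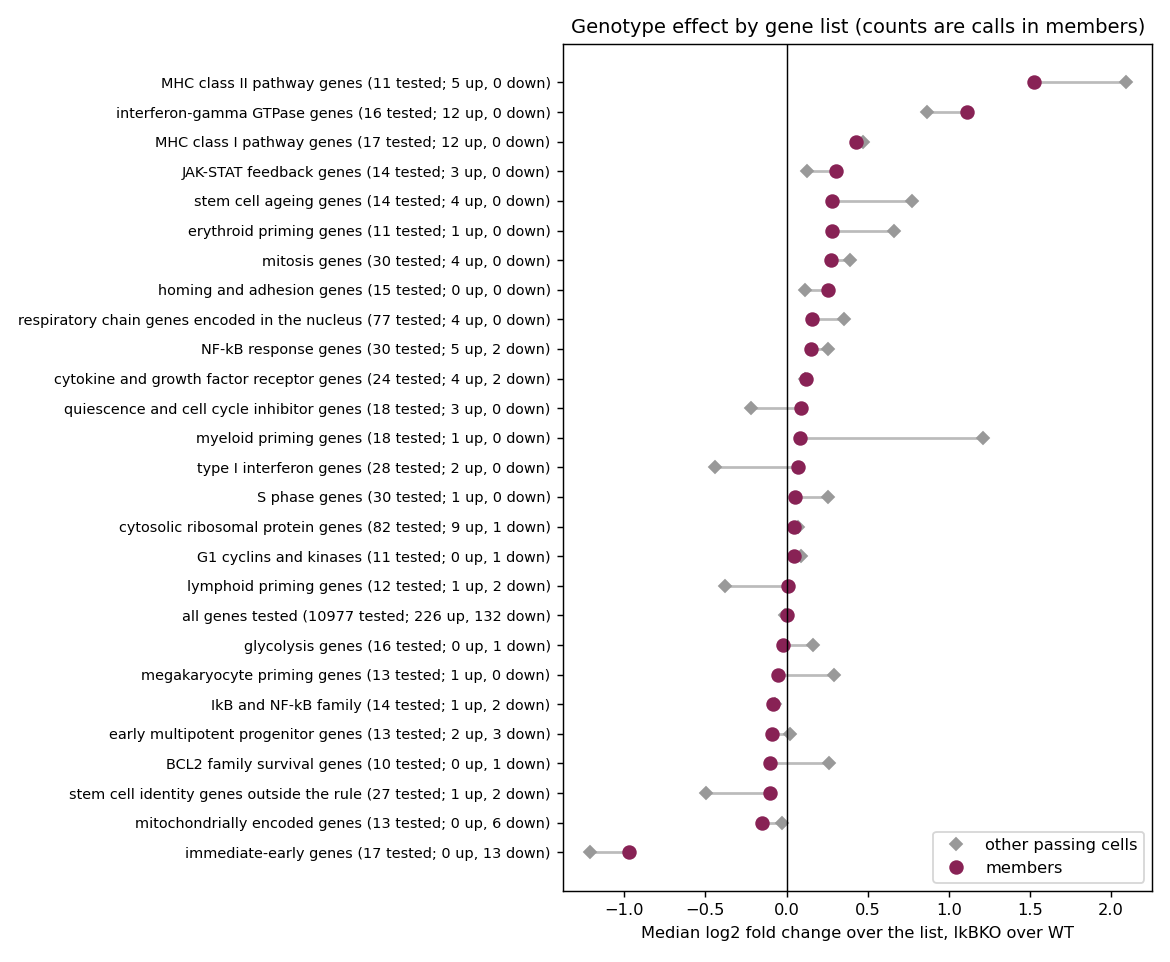
Median log2 fold change of IkBKO over WT for the gene lists other than sex-linked genes and markers of other cell types (horizontal axis) in the members (circles) and in the other passing cells (diamonds), with the number of genes tested and called in the members beside each list name. MHC class II, at 1.52, and interferon-γ GTPase genes, at 1.11, lie farthest to the right among members of the lists drawn, and immediate-early genes, at -0.97, farthest to the left.

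A direct test of class by genotype asked where the genotype effect in members differed from that in the other cells, and 24 of 14226 genes (0.169%) passed, 14 with a more positive effect in the members (0.0984%) and 10 with a more negative one (0.0703%). Gdpd3 had an effect of 7.44 ± 0.36 in members and 4.21 ± 0.21 in other cells (difference 3.37 ± 0.64, adjusted p = 0.0153), with WT other cells at 3.78 and 1.40 CPM. This difference leans on the single UMI of each WT pool of members. The antiviral genes Ifi27l2a, Ifi44 and Ddx58 fell in the other cells, by 1.46 ± 0.08, 1.60 ± 0.11 and 0.82 ± 0.08 on the log2 scale, and did not pass in the members. Their differences of effect were 1.49 ± 0.24 (adjusted p = 0.0119), 1.30 ± 0.24 (0.0146) and 1.00 ± 0.20 (0.0302). Ifi44 in the members was at 20.7 and 25.2 CPM in replicate 1 and at 33.0 and 19.9 CPM in replicate 2, in opposite directions. The chemokine gene Ccl4 was at 49.9 and 43.8 CPM and at 60.4 and 61.0 CPM in the members, with no common direction, and fell in the other cells (difference 1.39 ± 0.23, adjusted p = 0.0302), as did the cytokine receptor gene Il17re (1.26 ± 0.24, adjusted p = 0.0153).

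In the other direction, Cycs, which encodes cytochrome c, Srm, which makes spermidine, and Ybx3, a cold shock RNA-binding protein gene, had negative effects in members and positive ones in other cells. Cycs was at 119 and 95.4 CPM and at 103 and 73.6 CPM in the members (-0.38 ± 0.11) against 0.45 ± 0.08 in other cells (difference -0.83 ± 0.16, adjusted p = 0.0159). The differences for Srm and Ybx3 were -0.70 ± 0.15 and -0.69 ± 0.15 (both adjusted p = 0.0408), and that for the dipeptidase gene Cndp2 was -1.12 ± 0.24 (adjusted p = 0.0409). Ighm, whose germline transcripts are known in early progenitors, fell more in the members, from 34 to 10.2 CPM and from 46.3 to 17.1 CPM (-1.49 ± 0.19), than in other cells (-0.41 ± 0.10; difference -1.17 ± 0.20, adjusted p = 0.00409). The makeup of the other cells differed between genotypes: 339 WT and 1473 IkBKO cells of replicate 1, and 40 and 510 of replicate 2, had 20 or more Mpo UMIs. The part of that makeup in these differences was not tested.

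**Figure D5:**
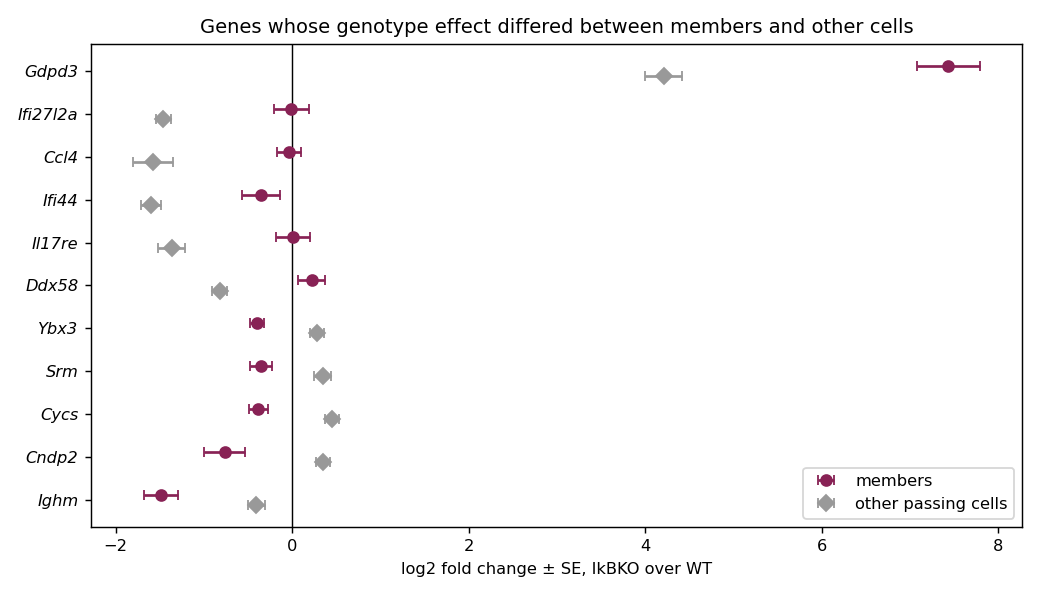
Log2 fold change of IkBKO over WT, with its standard error as a bar (horizontal axis), for the 11 named genes whose effect differed between the members (circles) and the other passing cells (diamonds). The antiviral, chemokine and receptor genes Ifi27l2a, Ccl4, Ifi44, Il17re and Ddx58 lie between -0.35 and 0.22 in members and between -1.60 and -0.82 in other cells, and Gdpd3 lies at 7.44 against 4.21.

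Against the 263 cells with 3 or more dormancy markers, the effect differed for 7 of 10153 genes (0.0689%), 2 more positive (0.0197%) and 5 more negative (0.0492%) in the members. Mpo, 1 of the 2, had its values limited by the rule and is not read as a result. Nusap1, a spindle protein gene, had an effect of 0.38 ± 0.11 in members and 1.84 ± 0.26 in the comparison cells (difference -1.46 ± 0.27, adjusted p = 0.00686). Birc5 differed by -1.22 ± 0.25 (adjusted p = 0.0392), the histone genes Hist1h1b and Hist1h2ae by -1.04 ± 0.19 and -0.81 ± 0.15, and the chromatin protein gene Hmgb2 by -0.60 ± 0.11 (each adjusted p = 0.00686). All 5 had positive fold changes in both groups of cells. Nusap1 and Birc5 belong to the mitosis list, and the other 3 to none of the lists. The comparison cells are few, 36 WT and 19 IkBKO in replicate 1 and 121 and 87 in replicate 2. After both groups were chosen again from cells thinned to 5000 UMIs, all 5 differences had the other sign and were not called. That choice left 9 WT and 7 IkBKO comparison cells in replicate 1 and 42 and 28 in replicate 2, so those values are poorly fixed.

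S100a9, a neutrophil granule gene, had a more positive effect in the members (difference 4.87 ± 0.61, adjusted p = 1.1e-05), and this rests on 1 pool. It was at 24.8 and 21 CPM and at 12.5 and 153 CPM in the members, and the 8 mature neutrophil markers together were at 74.7, 55.8, 33.0 and 491 CPM in the same order, with 1 marker at 0 in each pool. Just 1 IkBKO member of replicate 2 and 1 WT member of replicate 1 held 10 or more neutrophil UMIs. Lcn2, another neutrophil gene, was called higher (3.18 ± 0.43, adjusted p = 4.59e-05) at 1.85 and 5.40 CPM and at 1.35 and 20.7 CPM, and without the 60 members it was too low to be tested and S100a9 had a log2 fold change of -0.32.

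Markers of other cell types were also summed. The 9 monocyte and dendritic cell markers together were at 101.0, 133, 132 and 162 CPM against 351, 1109, 199.9 and 408 CPM in the other cells. Of them Ms4a6c was called higher, from 29.6 to 77.4 CPM and from 29.5 to 72.7 CPM (1.36 ± 0.14, adjusted p = 1.21e-06), as it was in other cells (1.73 ± 0.08). Erythroid markers were at 90.6, 121, 59.0 and 185 CPM against 128, 59.1, 93.2 and 85.9 CPM in the other cells, so they were higher in members than in other cells in both IkBKO pools and lower in both WT pools, and 10 or more erythroid UMIs were found in 4 WT and 3 IkBKO members of replicate 1 and in 4 WT and 25 IkBKO members of replicate 2. B cell, T and NK cell, mast cell and basophil, megakaryocyte, and stroma and endothelium lists had 0 genes called by edgeR in the members, with summed levels of 35.5 to 48.2, 97.7 to 133, 13.8 to 62.1, 18.1 to 32.0 and 18.6 to 34.4 CPM across the pools. Stroma and endothelium markers were higher in members than in other cells in each pool, at 29.6, 18.6, 34.4 and 23.8 against 15.3, 5.41, 24.6 and 13 CPM, with 3 to 5 of the 7 at 0. The part of such RNA in the results above was not tested beyond the alternative that leaves out the 60 members.

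Surface antibody tags other than the hashing tags were counted in replicate 1 only, so they have no replicate. CD48, a protein absent from most long-term stem cells, had a median of 352.5 tag counts in WT and 364 in IkBKO members, below the 482 and 571 of the other cells and above the 309 and 317 of the cells with 3 or more dormancy markers. CD150, which long-term stem cells carry, had a median of 112.5 in both genotypes of members against 110.0 and 109 in other cells, and Flt3 had medians of 129 and 125 against 126 and 120.0. Only CD48 separated the members from the rest by more than a few counts, and on this tag the genotypes differed less among members than among other cells.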

How the data were processed

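LSK cells of 2 droplet libraries (3′ chemistry) were measured as UMI counts per gene and barcode, deposited by the authors without normalization; the build is mm10 and Cell Ranger 7.0 and Seurat 4.3.0 were used, per the submitters' processing notes, whereas the matrix headers name Cell Ranger 6.0.0. How reads shared by several genes were counted is not stated in the sources used here. Genotype and quality call per barcode came from the deposited cell table, which passes 7683 of 9322 barcodes (82.4%) of replicate 1 and 10346 of 24787 (41.7%) of replicate 2. No doublet caller was run; an alternative leaves out the 5% of members with the most UMIs.

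Counts of the members were summed per genotype and library, giving 4 pools, and tested with edgeR 4.0.16 (R 4.3.3, TMM scaling, filterByExpr, quasi-likelihood with robust priors) with the library as a block, which leaves 1 residual degree of freedom; genes were called at a Benjamini-Hochberg adjusted p of at most 0.05. Differences between classes of cells used 8 pools with each pool of origin as a block and 2 residual degrees of freedom. Standard errors are the log2 fold change over the square root of F. The pairing comes from the shared library, and deviations of the WT and IkBKO pools of a library correlated at 0.34 across 10977 genes, or 0.24 without sex-linked genes. DESeq2 1.42.0 was an alternative, as were other scaling, no filter, no block, each pool left out and narrower choices of members. The procedure was tested on simulated data. Every gene was drawn with the same dispersion and with no difference between libraries. The real pools differ by library and genes differ in spread, so these rates hold for the simulated setting only. For the genotype effect in members it recovered 40.0%, 76.1% and 98.5% of genes changed 1.5-, 2- and 4-fold, over 10956 genes. It called 0.0372% of the unchanged genes there. For class differences against other cells it recovered 18.64%, 61.11% and 94.25% at the same folds, over 14030 genes. Against cells with 3 or more dormancy markers it recovered 1.72%, 20.97% and 53.12%, over 10045 genes. Most simulated 1.5-fold differences were thus missed for the genotype effect in members and in both class comparisons.

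Genes named are the 12 highest and 12 lowest called with at least 20 CPM in 1 genotype and the same direction in both libraries, without unnamed gene models, all of the IκB and NF-κB family, up to 4 per list by p, the rule genes as values, up to 6 class differences per direction, and the 12 highest ratios of members to other cells; exceptions are marked. The members and the gene lists were chosen with earlier results of these data known. Coordinates are from GENCODE M21, which holds 99.6% of the gene IDs. Intervals cover counting error only. Some results are not reported here.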

Additional observations from a re-analysis of the deposited data

Results flagged for a closer look

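The genotype effect in the members differed from that in the other passing cells, by edgeR's test of class by genotype, for 11 named genes. The differences in log2 fold change were 3.37 for Gdpd3, 1.49 for Ifi27l2a, 1.39 for Ccl4, 1.30 for Ifi44, 1.26 for Il17re and 1.00 for Ddx58, and they were -1.17 for Ighm, -1.12 for Cndp2, -0.83 for Cycs, -0.70 for Srm and -0.69 for Ybx3. Members and other cells had opposite signs for Cndp2 (-0.77 and 0.35), Cycs (-0.38 and 0.45), Srm (-0.35 and 0.35) and Ybx3 (-0.40 and 0.28).

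Against the cells with 3 or more dormancy markers, the difference was 4.87 for S100a9, -1.46 for Nusap1, -1.22 for Birc5, -1.04 for Hist1h1b, -0.81 for Hist1h2ae and -0.60 for Hmgb2. DESeq2 called 0 genes in this comparison, with 61 at an unadjusted p under 0.05, against 7 called by edgeR, and S100a9 was high in 1 pool.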

How the results depend on the processing

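Members' calls, 226 higher and 132 lower, came to 30 and 12 with DESeq2, 44 and 24 with no replicate block, 41 to 101 and 20 to 56 with 1 pool left out, 63 and 28 with members chosen after thinning to 5000 UMIs, 44 and 17 with at least 2 UMIs of each stem gene, 89 and 46 with no dormancy marker, 337 and 215 without the 5% largest members, 146 and 94 without Mki67 and Top2a, and 353 and 221 without the 60 members carrying another type's RNA. Scaling by DESeq2 size factors gave 238 and 146 and no filter 312 and 196. The cause was not tested. Of the 358 genes, 285 of 293 measured kept their direction after thinning, the lowest share of the alternatives run. Against other cells, 14 and 10 became 2 and 2 (DESeq2), 101 and 73 (no filter), 18 and 30 (thinned) and 18 to 415 and 5 to 410 (1 pool left out, highest without IkBKO replicate 2). Against cells with 3 or more markers, 2 and 5 became 0 and 0 (DESeq2), 7 and 11 (no filter), 2 and 0 (thinned) and 1 to 20 and 0 to 16 (1 pool left out). Shares in the order WT and IkBKO of replicate 1, then of replicate 2, were 2.80%, 1.92%, 4.99% and 5.10% at 5000 UMIs, 3.18%, 1.90%, 6.21% and 4.67% at 8000 UMIs, and 1.72%, 1.39%, 2.06% and 2.40% with no dormancy marker.

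Members' log2 fold changes of the other sign were -0.047 for Cd48 and 0.492 for Ifi27l2a (at least 2 UMIs), -0.051 for Top2a, -0.274 for Ccnb2, 0.039 for Ifi44, -0.274 for Il17re, -0.143 for Ddx58 and -0.303 for Nusap1 (no dormancy marker), -1.283 for S100a9, 0.051 for Ccl4, 0.021 for Ifi44, -0.704 for Il17re, -0.213 for Hist1h1b and -0.058 for Hist1h2ae (thinned), -0.464 for S100a9 and -0.038 for Il17re (without the 5% largest), -0.462 for S100a9, 0.161 for Ifi27l2a, -0.386 for Il17re and -0.345 for Hist1h1b (no Mki67 or Top2a), -0.323 for S100a9 and -0.052 for Il17re (without the 60 members) and -0.031 for Il17re (DESeq2). With 1 pool left out they ranged from -0.306 to 0.183 for Ifi27l2a, -0.27 to 0.132 for Ccl4, -0.544 to 0.067 for Ifi44, -0.262 to 0.165 for Il17re and -0.778 to 0.073 for Srm. After thinning, differences against cells with 3 or more markers were 6.938 for Nusap1, 5.343 for Birc5, 1.707 for Hist1h1b, 0.591 for Hist1h2ae and 0.009 for Hmgb2. These rest on 9 WT and 7 IkBKO comparison cells of replicate 1 and 42 and 28 of replicate 2, so their size is poorly fixed.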
